A study of Homo sapiens with 32 samples.

Results

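The genes examined here were 55 genes of mitosis and of the passage from G2 phase into mitosis (G2/M), of 17788 genes in the count table. They were listed by name from their known roles, with earlier results of these data already known, and matched through their GENCODE symbols. All 55 were found, and all passed the filter on low counts. RNA sequencing (RNA-seq) had been performed on 32 libraries of MCF10A cells, a non-tumorigenic line of human mammary epithelium. Wild-type clones 27 and 2 (WT) and JUNB-edited clones 1 and 65 (mut, "knock-out" in the labels) received solvent or 5 ng/ml TGFβ1 for 6, 24 or 72 h. Each clone had 2 replications, so that each of the 8 groups held 4 libraries. JUNB is one of the JUN proteins that form the AP-1 factor. The mut clones were derived from single cells after CRISPR/Cas9 editing and carry an extended deletion, which still leaves a smaller JUNB polypeptide at a low level. Solvent libraries are labelled as time 0, but per the study's methods they received solvent for 72 h and all cultures were collected at the same time after seeding. The libraries of 1 clone and 1 replication are called a series and written as clone and replication (27-2).

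Entry into mitosis is driven by CDK1 bound to cyclin B, which the CDC25 phosphatases activate by removing inhibitory phosphates. The spindle assembly checkpoint then holds back the anaphase-promoting complex until every kinetochore is attached to the spindle, after which sister chromatids separate and the cell divides. Many of these genes are transcribed together late in the cell cycle through promoters bound by the MuvB complex with MYBL2 and FOXM1, and TGFβ1 is known to arrest epithelial cells in G1 phase.

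Library totals ranged from 39702412 to 54651906 counts, and the lowest count of any of the 55 genes in any library was 154. The 10 most abundant genes took 4.30% to 9.43% of a library's counts, with the higher shares in WT cells at 24 and 72 h. All 8 markers of mammary epithelium were listed, with summed levels of 5798 to 11246 CPM (a gene's counts scaled to the total counts of its library) in WT and 8960 to 14841 CPM in mut libraries. Of 7 blood and endothelial markers 4 were listed, with summed levels of 5.74 to 24.5 CPM that came almost wholly from CD68, while PTPRC, CD3E and VWF were at or near 0. The part of these differences in the results was not tested. The JUNB transcript did not check the genotype labels, since solvent libraries had 97.6 ± 12.9 CPM in WT cells and 112 ± 47.9 CPM in mut cells (SD, n = 4).

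Levels of different genes were compared per length of their exons in WT solvent libraries. The highest was that of CCNB1, the B-type cyclin that partners CDK1, at 90.8 CPM per kb, followed by CDC25B at 84.2, TOP2A, the topoisomerase that untangles chromosomes, at 60.0 and TPX2, a spindle assembly factor, at 56.6 CPM per kb. The lowest levels were those of the kinesin KIF4A at 4.17, CDCA3 at 4.76 and ESPL1 (separase), which cuts cohesin, at 4.77 CPM per kb. In 18 of the 55 genes, among them CCNA2, PLK1, BUB1B, CDCA3, SMC4 and FOXM1, the annotation overlaps another gene of the table, so their values are less certain.

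The promoters are shown because many genes of this kind share a CCAAT box and a cell cycle genes homology region (CHR), the element bound by MuvB. Windows from 250 bases before to 50 bases after the start site came from RefSeq (GRCh38.p14). They were listed for 47 of the 55 genes, and the first listed window of each was used. AURKA, BIRC5, BUB3, CENPM, FOXM1, TPX2, TTK and UBE2C had no entry. The 150 bases before the start site are printed 5′ to 3′ on the gene's strand, with CCAAT and the CHR letters (TTTGAA or TTCGAA), on either strand, in capitals. CCNB1 (chr5:69167000-69167149, plus strand), CCNB2 (chr15:59104996-59105145, plus), PLK1 (chr16:23678739-23678888, plus) and CDC20 (chr1:43358831-43358980, plus) show the common elements. CCNB1 has CCAAT boxes only, with no match to the CHR letters in its window. MAD2L1 (chr4:120066849-120066998, minus) and CDC25B (chr20:3786801-3786950, plus) are shown because their values stand out below.
CCNB1: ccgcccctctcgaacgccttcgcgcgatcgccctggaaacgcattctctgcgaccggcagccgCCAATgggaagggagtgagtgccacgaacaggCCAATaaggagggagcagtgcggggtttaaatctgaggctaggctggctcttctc
CCNB2: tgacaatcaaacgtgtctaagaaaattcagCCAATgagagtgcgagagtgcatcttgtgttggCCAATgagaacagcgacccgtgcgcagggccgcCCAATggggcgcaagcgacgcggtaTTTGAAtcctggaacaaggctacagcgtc
PLK1: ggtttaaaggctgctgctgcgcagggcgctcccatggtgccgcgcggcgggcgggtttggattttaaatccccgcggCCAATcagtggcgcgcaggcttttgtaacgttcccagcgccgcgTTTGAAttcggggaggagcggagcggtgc
CDC20: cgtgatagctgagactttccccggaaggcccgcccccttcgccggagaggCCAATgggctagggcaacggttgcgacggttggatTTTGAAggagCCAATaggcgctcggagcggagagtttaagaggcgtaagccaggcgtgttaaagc
MAD2L1: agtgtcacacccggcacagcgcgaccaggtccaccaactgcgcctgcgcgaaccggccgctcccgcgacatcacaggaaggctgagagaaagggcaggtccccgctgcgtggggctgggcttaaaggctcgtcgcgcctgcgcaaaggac
CDC25B: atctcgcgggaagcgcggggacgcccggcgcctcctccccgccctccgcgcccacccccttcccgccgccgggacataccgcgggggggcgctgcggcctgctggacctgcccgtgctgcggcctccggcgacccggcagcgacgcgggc

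CCAAT was present in 36 of the 47 windows (76.6%), against 35.7% of 27305 genes with a window and 36.0% of the 11690 of them that were tested. A CHR, by the letters TTTGAA or TTCGAA, was present in 34 (72.3%), against 16.6% of all and 11.6% of tested genes, and both elements in 28 (59.6%), against 6.58% and 4.81%. The printed stretch of CCNB2 holds 3 CCAAT boxes and a CHR, that of PLK1 1 of each, that of CDC20 2 CCAAT boxes with a CHR between them, and that of CCNB1 2 CCAAT boxes. MAD2L1 has a CCAAT and a CHR in its window but outside the printed stretch, and the first of 4 windows listed for CDC25B has neither. CDC25C also had 4 listed windows, and its first has neither. With any listed window counted, CCAAT was present in 38 genes (80.9%, against 39.7% of all). A CHR was then present in 36 (76.6%, against 19.5%). E2F sites (TTTGGCGC, TTTCCCGC, TTTGCCGC or TTTCGCGC) were present in 3 windows (6.38%, against 3.33% of all and 5.10% of tested genes) and the AP-1 site TGANTCA in 0 (against 7.76% and 5.08%). Both strands were searched, and a match is a sequence feature, not a measured binding site.

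The mean log2 CPM over the 55 genes was lowest in WT cells at 24 h and moved less in mut cells. For solvent, 6, 24 and 72 h in turn, WT libraries averaged 6.28 ± 0.18, 6.11 ± 0.22, 5.32 ± 0.29 and 5.93 ± 0.24 (SD, 4 libraries each). The averages of mut libraries were 6.19 ± 0.04, 6.03 ± 0.09, 5.78 ± 0.13 and 6.09 ± 0.23. The WT libraries at 24 h, from 4.93 to 5.59, lay below all other libraries, the lowest of which was WT 72 h 2-2. In bulk samples, fewer cells in the phases that express these genes and less RNA of these genes per cell cannot be told apart.

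**Figure D1:**
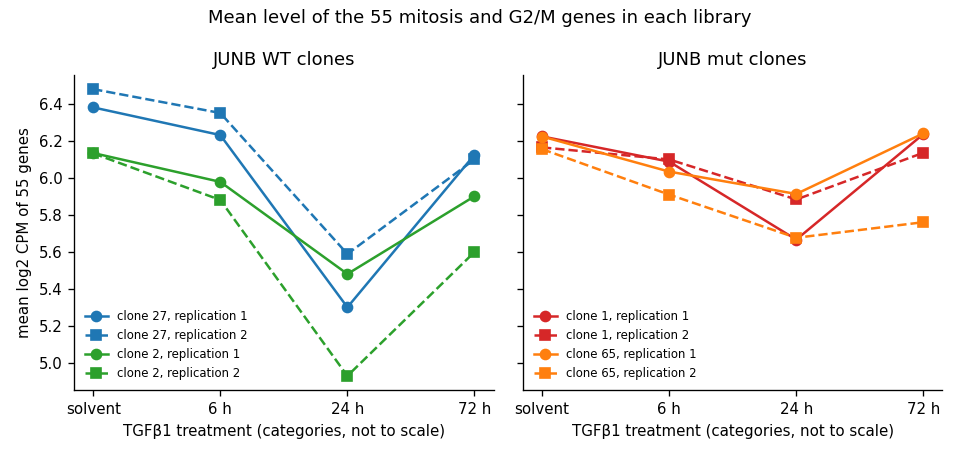
Mean log2 CPM of the 55 genes (vertical axis) by treatment (horizontal axis) in each library of WT and mut cells, with 1 line for each clone and replication. All 4 WT lines have their lowest point at 24 h, the mut lines fall less, and mut 65-2 stays low at 72 h (5.76).

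Within series, the mean change of the 55 genes at 24 h was -1.08 in 27-1, -0.89 in 27-2, -0.65 in 2-1 and -1.20 in 2-2 on the log2 scale. In mut cells it was -0.56 in 1-1, -0.28 in 1-2, -0.31 in 65-1 and -0.48 in 65-2, so that the genotypes did not overlap. All 55 genes were lower at 24 h in each of the 4 WT series, against 45.9% of all 14865 genes tested, and 51 were lower in each of the 4 mut series, against 31.7% of all genes.

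TGFβ1 lowered 54 of the 55 genes in WT cells at 24 h (limma-voom, Benjamini-Hochberg adjusted p under 0.05 over all genes tested), where 38% of all genes tested were called lower. The median log2 fold change was -0.98 for the 55 genes and -0.18 for all genes, and 21 of the 55 fell by more than 1 log2 unit. With trimmed mean of M-values (TMM) scaling, under which the median of all genes was 0.00, 54 of the 55 were called lower against 23.2% of all genes, and their median was -0.80. The p-values measure the spread between libraries, and the replications of a clone share that clone.

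The cyclins, CDK1 and the CDC25 phosphatases all fell in WT cells at 24 h, 6 of 6, with a median log2 fold change of -1.07. CCNB1 (ENSG00000134057, GRCh38 chromosome 5, 69167135 to 69178245) had 237, 253, 199 and 195 CPM in solvent in series 27-1, 27-2, 2-1 and 2-2, and 104, 123, 121 and 82.3 CPM at 24 h. The groups did not overlap, and the lowest value was that of 2-2. The log2 fold change was -1.05 ± 0.14 (SE) with a limma-voom adjusted p of 2.25e-07. CCNA2, the cyclin of S and G2 phase, went from 94.4 to 130 CPM in solvent to 36.9 to 63.1 CPM, a fall of 1.09 ± 0.16 on the log2 scale.

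All 3 mitotic kinases fell. PLK1 (chromosome 16, 23677656 to 23690367), the kinase of mitotic entry and cytokinesis, had 123, 132, 104 and 109 CPM in solvent and 58.4, 79.4, 59.6 and 43.7 CPM at 24 h in series 27-1, 27-2, 2-1 and 2-2. Every treated library lay below every solvent library, at a log2 fold change of -0.98 ± 0.16 (limma-voom adjusted p 7.34e-06). AURKA, the kinase of centrosome maturation, changed by -0.83 ± 0.14, from 60.4 to 79.3 to 30.2 to 47.8 CPM.

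Among the 5 genes of the spindle assembly checkpoint 4 fell. MAD2L1 (chromosome 4, 120055623 to 120066858), whose product holds CDC20 inactive, had 48.7, 60.9, 47.2 and 46.6 CPM in solvent and 19.2, 26.1, 25.0 and 15.6 CPM at 24 h, in the same order of series. The groups were far apart, at -1.26 ± 0.14 (limma-voom adjusted p 3.31e-08), and the kinase BUB1 fell by 1.01 ± 0.15. BUB3 (chromosome 10, 123154402 to 123170467), which carries BUB1 and BUB1B to kinetochores, was the exception. It had 202, 252, 190 and 186 CPM in solvent and 178, 207, 180 and 163 CPM at 24 h. These ranges overlapped, and the log2 fold change was -0.18 ± 0.08 with a limma-voom adjusted p of 0.0575. With the series as a replicate block, which compares libraries within a clone and replication, it was -0.18 ± 0.05 with an adjusted p of 0.00203, and BUB3 was then also called higher at 72 h than at 24 h in WT cells. With all libraries and no block it was called in none of the 16 comparisons, while without series 27-2, WT solvent 2-1, WT solvent 2-2 or WT 24 h 27-2 all 55 genes were called lower in WT cells at 24 h.

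All 5 genes grouped as partners of the anaphase-promoting complex and genes of mitotic exit fell. CDC20, the activator of the complex, fell by 1.00 ± 0.17, UBE2C, its ubiquitin-conjugating enzyme, by 0.91 ± 0.15 and CDCA3 by 1.08 ± 0.18 on the log2 scale. All 9 kinetochore and centromere genes fell, with the largest change in CENPM (chromosome 22, 41938737 to 41947152), a subunit of the constitutive centromere network. It had 10.8, 12.1, 10.9 and 10.00 CPM in solvent and 3.44, 5.41, 5.55 and 3.70 CPM at 24 h in series 27-1, 27-2, 2-1 and 2-2. The groups did not overlap, at -1.32 ± 0.20 (limma-voom adjusted p 2.66e-06). SPC25, of the NDC80 complex, fell by 1.20 ± 0.23, CENPF by 0.94 ± 0.12 and the kinetochore motor CENPE by 0.79 ± 0.14.

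All 4 genes of the chromosomal passenger complex fell, with BIRC5 (survivin) at -0.95 ± 0.15 and the scaffold INCENP at -0.81 ± 0.14. All 8 kinesins fell, KIF11, which pushes spindle poles apart, by 0.98 ± 0.16 and KIF14, a motor of cytokinesis, by 0.72 ± 0.15. All 8 spindle and cytokinesis proteins fell, HMMR by 1.00 ± 0.14, TPX2 by 0.88 ± 0.12 and ANLN (anillin, of the contractile ring) by 0.76 ± 0.15.

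All 5 genes of chromosome structure fell. TOP2A (chromosome 17, 40388525 to 40417896) had 400, 431, 340 and 360 CPM in solvent and 201, 216, 216 and 148 CPM at 24 h in series 27-1, 27-2, 2-1 and 2-2. These did not overlap, at -0.98 ± 0.12 (limma-voom adjusted p 1.57e-07). The condensin subunits NCAPH and SMC4 fell by 1.15 ± 0.16 and 0.73 ± 0.13, and the transcription factors MYBL2 and FOXM1 by 1.14 ± 0.22 and 0.85 ± 0.13. By the first listed window, the 34 genes with a CHR had a median change of -0.98 and the 13 without -1.05. The medians with and without CCAAT were -0.99 and -0.92.

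**Figure D2:**
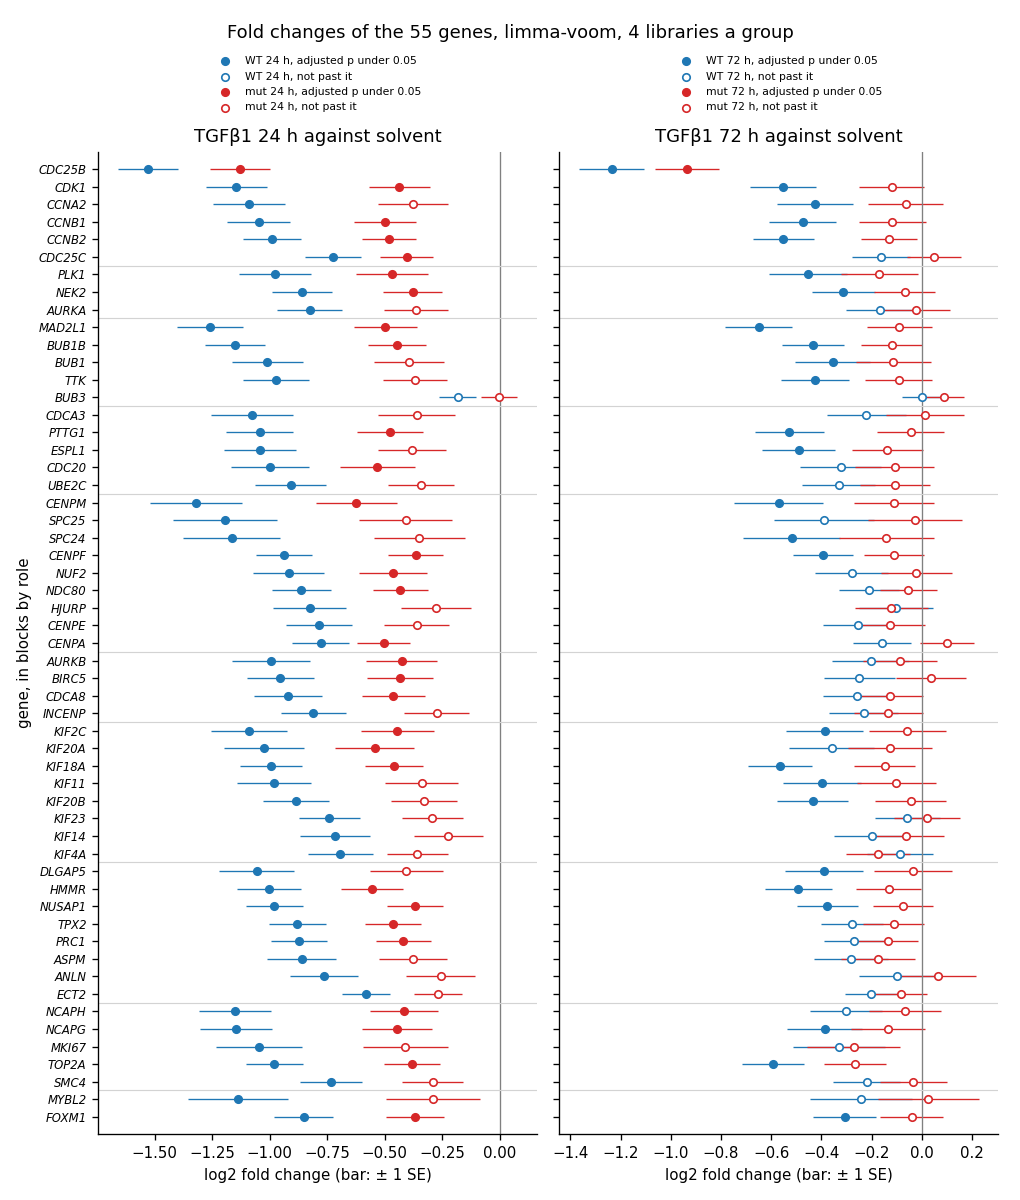
Log2 fold change of each of the 55 genes (rows, in blocks by role) at 24 h and 72 h against solvent for WT and mut cells, with bars of 1 SE and filled points where the adjusted p was under 0.05. At 24 h all WT points but that of BUB3 are filled, and at 72 h CDC25B alone is filled in mut cells.

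After 6 h of TGFβ1 few of the genes were called. In WT cells 2 of 55 were lower (background 11.9% of all genes), CDC25B and MAD2L1, the latter at -0.40 ± 0.13 with a limma-voom adjusted p of 0.035. In mut cells CDC25B alone was lower (background 4.94%). Blocking on the series (the replicate block) gave 8 calls in WT (18.1%) and 9 in mut cells (11.6%). Leaving out WT solvent 27-1 or 27-2, or WT 6 h 2-1 or 2-2, left 1 call in WT cells, CDC25B. In mut cells the count was 0 without mut 6 h 65-1 or 65-2 and 2 without mut 6 h 1-1 or 1-2.

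In mut cells at 24 h, 30 of the 55 genes were called lower (background 17.1%), with a median log2 fold change of -0.40 against -0.10 for all genes. CCNB1 had 207, 189, 200 and 196 CPM in solvent and 118, 155, 152 and 138 CPM at 24 h in series 1-1, 1-2, 65-1 and 65-2. The groups did not overlap, at -0.50 ± 0.13 (limma-voom adjusted p 0.0077). CENPM fell by 0.62 ± 0.18 and HMMR by 0.56 ± 0.13, while KIF14 at -0.22 ± 0.15, ANLN at -0.26 ± 0.15 and INCENP at -0.27 ± 0.14 were not called. The count was 11 with TMM scaling (8.04%) and 52 under the replicate block by series (25.1%), where BUB3, HJURP and KIF14 were not called. It was 12 without mut 24 h 1-1, 14 without mut 24 h 65-2 and 19 without mut solvent 1-1.

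At 24 h, 41 of the 55 genes were higher in mut than in WT cells and 0 were lower. Of all 14865 genes, 24.7% were called higher and 1820 were called lower. The median difference was 0.45 on the log2 scale, against 0.09 for all genes. MYBL2 (chromosome 20, 43667019 to 43716495) had 40.1, 50.0, 44.7 and 24.0 CPM in WT series 27-1, 27-2, 2-1 and 2-2 and 63.8, 75.4, 70.0 and 56.1 CPM in mut series 1-1, 1-2, 65-1 and 65-2. Every mut library was above every WT library, at 0.78 ± 0.22 (limma-voom adjusted p 0.00634). SPC25 was higher by 0.74 ± 0.24, CENPM by 0.72 ± 0.21, TOP2A by 0.60 ± 0.12, UBE2C by 0.58 ± 0.16 and CCNB1 by 0.40 ± 0.14. The smallest differences were those of BUB3 at 0.01 ± 0.08 and ANLN at 0.10 ± 0.15. The count was 26 with TMM scaling (16.1%), which did not call CCNB1, and 15 without WT 24 h 2-2, the WT library with the lowest mean at 24 h.

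In solvent, CDC25B was the only one of the 55 genes called between mut and WT cells (background 6.38% higher), and the median difference was -0.10. At 6 h CDC25B was higher in mut cells (background 11.3%), whereas the kinesin KIF20B at -0.41 ± 0.14 and ANLN at -0.41 ± 0.15 were lower (background 10%). Leaving out WT 6 h 2-1 or mut 6 h 65-1, 1-2 or 65-2 left 1 call at 6 h.

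The interaction (the WT change subtracted from the mut change) tested whether the genotypes responded differently. At 24 h it was above 0 for all 55 genes, and also for 84.0% of the 9777 genes with a negative WT change. It passed the threshold for 10 of the 55 (background 7.72% called higher), with a median of 0.54 against 0.08 for all genes. The largest of these were MAD2L1 at 0.76 ± 0.20 (limma-voom adjusted p 0.0148) and NCAPH at 0.73 ± 0.22. CCNA2, CDK1 and the checkpoint kinase BUB1B were at 0.71 ± 0.22, 0.71 ± 0.19 and 0.71 ± 0.18, and NCAPG, ESPL1, NUSAP1, TOP2A and CENPF at 0.70 ± 0.22, 0.66 ± 0.21, 0.61 ± 0.17, 0.60 ± 0.17 and 0.57 ± 0.17. MYBL2 had the highest estimate, 0.85 ± 0.30, and was not called (limma-voom adjusted p 0.069). The ratio of the mut to the WT log2 change had a median of 0.397 over the 55 genes, with quartiles of 0.374 and 0.477.

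Under the replicate block by series, 48 of the 55 genes had a called interaction at 24 h (14.1% of all genes), and under TMM scaling 3 (2.96%). With counts summed per clone 0 were called, and without series 1-2 1 was called. The genes not called under the block were CDC25B, CDC25C, BUB3, CENPA, CENPE, KIF4A and ECT2. Leaving out single libraries gave 3 calls without WT solvent 27-1, WT 24 h 2-2, mut 24 h 65-1 or mut 24 h 1-2, 4 without mut solvent 65-2 and 5 without WT solvent 27-2. It gave 6 without WT 24 h 27-1 or mut solvent 1-2, and 21 without WT 24 h 27-2. At 6 h the limma-voom interaction called 0 of the 55 genes, where 0.074% of all genes were called. Of the 55, 0 had an unadjusted p under 0.05, and edgeR and DESeq2 called 0.

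**Figure D3:**
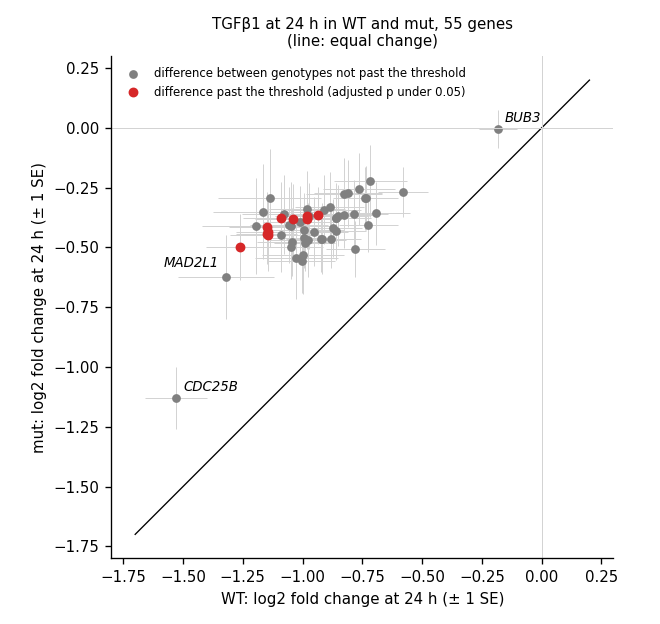
Log2 fold change at 24 h in mut cells (vertical axis) against WT cells (horizontal axis) for the 55 genes, with a line of equal change. All 55 points lie above the line, and the 10 genes with a called interaction are marked.

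Between 24 and 72 h most of the genes rose in WT cells. The comparison called 49 of 55 higher (background 4.68%), with a median of 0.60 against 0.00 for all genes, and all 55 were higher in each of the 4 WT series, against 19.8% of all genes. MYBL2 had 99.0, 79.2, 67.9 and 49.2 CPM at 72 h in series 27-1, 27-2, 2-1 and 2-2. Each series was above its own value at 24 h, at 0.90 ± 0.22 (limma-voom adjusted p 0.0109). CDCA3 rose by 0.86 ± 0.18, NCAPH by 0.85 ± 0.16 and CCNB1 by 0.57 ± 0.14. CDC25B, BUB3, SPC24, KIF20B, KIF18A and TOP2A were not called. The count was 20 without WT 24 h 2-2, 28 without WT 72 h 27-1 and 29 without WT 72 h 27-2, and the call of MYBL2 was lost without WT 24 h 2-2 or WT 72 h 27-1.

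At 72 h, 26 of the 55 genes were called lower than in solvent in WT cells (background 38.4%), with a median of -0.33 against -0.19 for all genes. TOP2A had 280, 276, 254 and 207 CPM in series 27-1, 27-2, 2-1 and 2-2. These lay below all WT solvent libraries, at -0.59 ± 0.12 (limma-voom adjusted p 0.000201). MAD2L1 was lower by 0.65 ± 0.13 and CENPM by 0.57 ± 0.18, while 0 of the 4 passenger complex genes were called, and AURKA was at -0.17 ± 0.14. The ratio of the change at 72 h to that at 24 h had a median of 0.349 over the 55 genes. The count was 8 with TMM scaling (23.3%) and 44 under the replicate block (43.6%), 12 without WT 72 h 2-2, 16 without WT solvent 27-2 and 17 without WT solvent 27-1.

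In mut cells at 72 h CDC25B alone was called lower than in solvent (background 16.3%), and the median of the 55 genes was -0.10 against -0.09 for all genes. The mean of the 55 genes stood 0.01, -0.03 and 0.02 from solvent on the log2 scale in series 1-1, 1-2 and 65-1, and -0.39 in 65-2. TOP2A had 361, 338, 361 and 229 CPM in series 1-1, 1-2, 65-1 and 65-2, and 65-2 was again the low library. Between 24 and 72 h, CDC25C at 0.45 ± 0.11 and the centromeric histone CENPA at 0.60 ± 0.12 were called higher (background 0.693%), with a median of 0.31 over the 55 genes. With the series as a replicate block 34 were called (4.66%). The count was 8 without mut 72 h 65-2 and 1 without any of the other 7 mut libraries at 24 and 72 h.

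At 72 h, 9 of the 55 genes were higher in mut than in WT cells, a smaller share than the background of 26%. They were CDC25B, CCNB2 at 0.58 ± 0.12, CENPM at 0.48 ± 0.18, KIF18A, HMMR, CENPA, MAD2L1, CDC25C and TOP2A. The count was 4 with TMM scaling (18.7%), 3 without WT 72 h 2-2, and 5 without WT 72 h 2-1 or mut 72 h 65-1. The interaction at 72 h called MAD2L1 alone (background 9.4%), at 0.56 ± 0.19 (limma-voom adjusted p 0.0474). It called 14 with the series as a replicate block (17.1%), 6 without mut 72 h 65-2, and 0 with TMM scaling, edgeR, DESeq2, no filter on low counts or sums per clone. It called 0 without any 1 of the 4 WT or 4 mut solvent libraries, WT 72 h 2-1 or 2-2, or mut 72 h 1-1 or 65-1. The limma-voom interaction of the change from 24 to 72 h called 0 of the 55 genes, where 0.00673% of all genes were called. Of the 55, 6 had an unadjusted p under 0.05, and edgeR and DESeq2 called 0. Under the replicate block by series this interaction also called 0, where 70 of all 14865 genes were called higher and 50 lower. With the block, 34 of the 55 had an unadjusted p under 0.05. The share of all genes at that unadjusted p was not determined, so the 6 and the 34 have no background.

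CDC25B (ENSG00000101224, GRCh38 chromosome 20, 3786772 to 3806121, plus strand), which activates CDK1 at the G2/M transition, was called at every time in both genotypes. It had 357, 277, 357 and 324 CPM in WT solvent libraries 27-1, 27-2, 2-1 and 2-2, and 205, 198, 171 and 176 CPM at 6 h. At 24 h it had 113, 123, 125 and 94.9 CPM and at 72 h 158, 150, 144 and 109 CPM. All treated WT libraries lay below all WT solvent libraries. The WT log2 fold changes were -0.81 ± 0.13, -1.53 ± 0.13 and -1.24 ± 0.13 at 6, 24 and 72 h, and the adjusted p-values from limma-voom were 6.32e-05, 2.34e-10 and 9.07e-09.

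In mut series 1-1, 1-2, 65-1 and 65-2, CDC25B had 421, 369, 466 and 461 CPM in solvent and 265, 377, 279 and 276 CPM at 6 h. At 24 h it had 158, 233, 204 and 195 CPM and at 72 h 222, 191, 260 and 227 CPM. Series 1-2 at 6 h was the only treated mut library within the solvent range. The mut changes were -0.53 ± 0.13, -1.13 ± 0.13 and -0.93 ± 0.13, and their adjusted p-values from limma-voom were 0.0129, 3.85e-07 and 3.67e-06, and the call at 6 h was lost without mut 6 h 65-1 or 65-2.

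Every mut library had more CDC25B than every WT library of the same treatment. For solvent, 6, 24 and 72 h the log2 differences were 0.39 ± 0.13, 0.66 ± 0.13, 0.78 ± 0.13 and 0.69 ± 0.13. That in solvent had a limma-voom adjusted p of 0.0447 and was lost without any 1 of WT solvent 27-2, WT solvent 2-2, mut solvent 1-1, mut solvent 65-1 or mut solvent 65-2. The interaction of CDC25B at 24 h was 0.40 ± 0.18 and not called (limma-voom adjusted p 0.177).

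**Figure D4:**
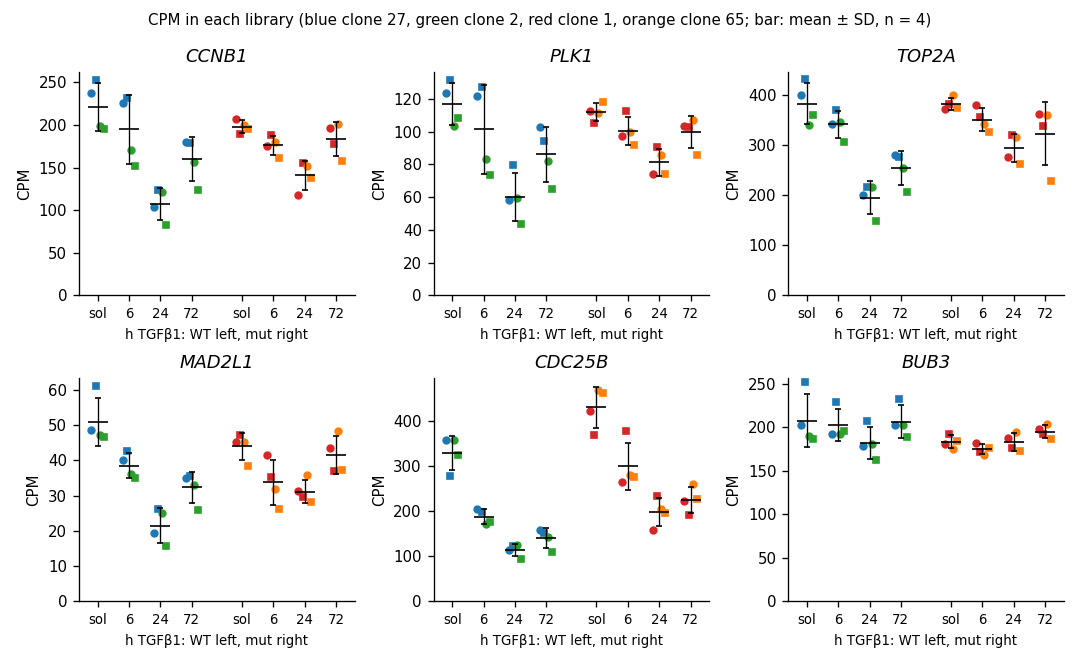
CPM of 6 genes in each library (vertical axis from 0) by treatment in WT and mut cells, with the mean ± SD of 4 libraries. CCNB1, PLK1, TOP2A and MAD2L1 are lowest in WT cells at 24 h, and CDC25B is higher in mut than in WT cells at each time.

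Most other mitotic genes were called lower as well. Of 105 genes tested in 7 further lists, 94 fell and 2 rose in WT cells at 24 h, with a median log2 fold change of -0.68. Of all 14865 genes, 38% were called lower and 2097 higher there. In mut cells at 24 h, 51 of the 105 fell (17.1% of all genes), with a median of -0.29. At 24 h, 60 were higher (24.7%) and 2 lower (1820 of all 14865 genes) in mut than in WT cells. Of the 105, 26 had a called positive interaction (7.72%). All 12 regulators of G2/M entry fell in WT cells at 24 h, PKMYT1, which inhibits CDK1, by 1.39 ± 0.18, CDC25A by 1.29 ± 0.16 and MASTL by 1.11 ± 0.16. All 5 other condensin subunits fell, NCAPG2 by 1.02 ± 0.15, NCAPD3 by 0.98 ± 0.12 and SMC2 by 0.85 ± 0.13. Of 28 other kinetochore genes 25 fell, CENPP by 1.47 ± 0.22, TRIP13 by 1.15 ± 0.15 and SKA3 by 1.11 ± 0.18, and of 21 other spindle and cytokinesis genes 20 fell, FAM83D by 1.27 ± 0.17, KIF15 by 1.23 ± 0.16 and KIF18B by 1.04 ± 0.18.

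Background shares and medians of all genes for WT cells at 24 h were 38% lower and -0.18. Of 12 genes of cohesin and its regulators 11 fell in WT cells at 24 h, with a median of -0.41, CDCA5 (sororin) by 1.19 ± 0.13, SGO1 by 1.00 ± 0.17 and SGO2 by 0.82 ± 0.16. Of 16 genes of the anaphase-promoting complex 12 fell, with a median of -0.33, ANAPC1 by 0.76 ± 0.07, UBE2S by 0.68 ± 0.13 and ANAPC4 by 0.60 ± 0.08, while its G1 activator FZR1 rose by 0.40 ± 0.07. Of 11 MuvB and DREAM subunits 9 fell, with a median of -0.44, RBL1 by 0.93 ± 0.12, E2F5 by 0.87 ± 0.11 and LIN9 by 0.83 ± 0.11, and LIN37 rose by 0.28 ± 0.10.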

How the data were processed

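RNA-seq counts per gene were deposited for all 32 libraries. The authors trimmed the reads with Trimmomatic, aligned them with STAR to GRCh38 with Ensembl annotation and counted reads per gene (versions not given in the sources used here). The deposited counts were used as they are, 0 columns were left unused, and totals were 39702412 to 54651906 counts, so that 3 counts correspond to 0.0549 to 0.0756 CPM, which covers counting error only. Of counts from 1 to 12, 82.6% were even, against 50.0% of counts over 500. The library kit does not mark strand and the strand setting of the counting was not given, so genes that overlap are uncertain. Names came from GENCODE 44 (17763 of 17788 identifiers matched).

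Genes were filtered with filterByExpr (minimum count 10, total 15), which left 14865. Counts were scaled by library size and tested with limma-voom (R 4.3.3, limma 3.58.1, offset 0.5) on all 32 libraries, with 1 mean per group of 4 libraries and Benjamini-Hochberg adjustment over all genes. Alternatives were TMM factors and the quasi-likelihood test of edgeR 4.0.16, the Wald test of DESeq2 1.42.0, no filter or a mean count of 50, the series or the replication number as a replicate block, sums per clone, and leaving out libraries or the series 27-2 or 1-2. The edgeR test also used TMM factors and DESeq2 its own size factors, so both changed the scaling as well as the test. TMM scaling together with the series block was chosen after seeing the data. Libraries of a group differed by at least 12.0 times counting noise (chi-square per degree of freedom), so none was a copy of another. Each was entered as 1 sample, although the replications of a clone share that clone and are not independent samples of a genotype.

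The labels give clone and replication, so that libraries of 1 series are paired. Deviations from group means correlated within series with a mean r of 0.303 (lowest 0.0283, 46 of 48 pairs over 0.1). The block as fitted, with 1 term for each series, cannot be used for mut against WT, and no other form of it was run. The members and gene lists were chosen with earlier results of these data known. Named were, by rule, the 2 most abundant genes of each of 10 roles, the 3 called genes with the largest change in the main comparisons, and genes that were exceptions in WT cells at 24 h or in direction. Other genes were named after their values were seen.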

Additional observations from a re-analysis of the deposited data

Results flagged for a closer look

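Of 224 groups of 4 libraries over 28 quantities, 9 had 1 library far from the others by Dixon's test, where chance flags about 1 in 20 groups. CDC25B had 377 CPM in mut 6 h 1-2, against 265 to 279 CPM in the others, and TPX2 had 194 CPM in the same library, against 174 to 176. In mut 72 h 65-2, CENPE had 48.1 CPM against 78.6 to 83.0, and TOP2A had 229 CPM against 338 to 361. BUB3 had 229 CPM in WT 6 h 27-2 against 192 to 196, and MAD2L1 had 60.9 CPM in WT solvent 27-2 against 46.6 to 48.7. CENPF had 182 CPM in WT 72 h 2-2 against 218 to 226 and 268 CPM in mut solvent 65-1 against 261 to 262. SMC4 had 236 CPM in mut solvent 65-2 against 253 to 255.

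The limma-voom interaction with all libraries was past its threshold at 24 h for CCNA2 (0.71), CDK1 (0.71), BUB1B (0.71), MAD2L1 (0.76), ESPL1 (0.66), CENPF (0.57), NUSAP1 (0.61), TOP2A (0.60), NCAPH (0.73) and NCAPG (0.70), and at 72 h for MAD2L1 (0.56), all on the log2 scale. At 24 h, 3 of the 55 genes were called with TMM scaling or edgeR, 1 without series 1-2 and 0 with sums per clone. The call of MAD2L1 at 72 h was lost with TMM scaling, edgeR, DESeq2, no filter on low counts and sums per clone.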

How the results depend on the processing

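Of 2122 single-gene values under alternatives, 1752 stayed on their side of the threshold, 370 lost it and 0 reversed. Calls gained under an alternative are not in this tally. The series block kept 85 of 85 values, yet raised the called interactions at 24 h from 10 to 48. Counts of called genes are given as in the report, where the main values stand. Shares of all genes called were determined only for the main fit, TMM scaling and the series block. Counts under the other alternatives, here and above, therefore have no background, and may have shifted along with those of all genes.
With TMM scaling 1 gene was called in WT at 6 h, 8 in WT at 72 h and 11 in mut at 24 h (median -0.32), 26 and 4 between mut and WT at 24 and 72 h, and 3 and 0 for the interactions at 24 and 72 h. The edgeR test, which also used TMM factors, gave 1, 8 and 11 (median -0.31). It gave 3 between mut and WT at 72 h, and 3 and 0 for the interactions. DESeq2 gave 1, 8 and 12 (median -0.30), with a median of -0.0886 in mut at 6 h. Between mut and WT it gave 2 in solvent (1 higher, 1 lower in mut) and 5 at 6 h (1 higher, 4 lower). At 72 h it gave 3 between mut and WT and 0 for the interaction. Under the replicate block by series the counts were 8 and 44 in WT at 6 and 72 h, 9, 52 and 2 in mut at 6, 24 and 72 h, 48 and 14 for the interactions and 34 for mut 72 h against 24 h. TMM with the series block gave 4 in WT at 6 h. In mut it gave 6 at 6 h and 2 at 72 h (1 higher, 1 lower), with a median of -0.32 at 24 h. It gave 43 and 5 for the interactions and 34 for mut 72 h against 24 h. Sums per clone gave 1 in WT at 6 h, 10 in mut at 24 h, 0, 1 and 4 between mut and WT in solvent, at 6 h and at 72 h, 0 and 0 for the interactions, and 17 and 0 for 72 h against 24 h in WT and mut. Without series 27-2 the counts were 1 in WT and 3 in mut at 6 h, 0 between genotypes in solvent, 0 for the interaction at 72 h and 5 for mut 72 h against 24 h. Without series 1-2 they were 1, 25 and 4 between genotypes at 6, 24 and 72 h, 1 for the interaction at 24 h and 0 for mut 72 h against 24 h. The replication number as a replicate block gave 2 in mut at 6 h, and no low-count filter gave 0 for the interaction at 72 h. The causes were not tested.
Leaving out single libraries gave 1 to 2 and 12 to 33 calls in WT at 6 and 72 h, 0 to 2 and 12 to 32 in mut at 6 and 24 h, 0 to 1, 1 to 3, 15 to 45 and 3 to 13 between genotypes in solvent and at 6, 24 and 72 h, 3 to 21 and 0 to 6 for the interactions, and 20 to 53 and 1 to 8 for 72 h against 24 h in WT and mut. The median in mut at 72 h ranged from -0.1377 to 0.033, and was above 0 without mut 72 h 65-2. With 2 clones per genotype, clone and genotype differences cannot be told apart.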

Other observations

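Genes of DNA replication and the G1/S transition also fell in WT cells at 24 h, but larger shares of them were called at 6 and 72 h. At 6 h in WT cells 22 of 45 were called lower (background 11.9%), with a median of -0.36, against 2 of the 55 genes. At 72 h 37 were called lower (38.4%), with a median of -0.49, against 26 of the 55. In mut cells at 6 h 7 were called lower (4.94%), against 1 of the 55. All 45 of these genes tested were called lower in WT cells at 24 h, with a median log2 fold change of -1.19 (limma-voom), and 25 in mut cells, with a median of -0.42. The shares of all genes called lower were 38% and 17.1%. The largest changes in WT cells were those of E2F2 at -2.52, POLE2 at -1.75 and MCM10 at -1.67. At 24 h all 45 were higher in mut than in WT cells, with a median difference of 0.64 (24.7% of all genes), and 40 had a called positive interaction, with a median of 0.78 (7.72%). Between 24 and 72 h 42 rose in WT cells (4.68%). Of 8 epithelial markers, 2 were called higher and 3 lower in WT cells at 24 h. Of all 14865 genes, 2097 were called higher and 5654 lower there, so the markers were near the background. In mut cells at 24 h, 1 marker was higher and 3 were lower, against 1004 and 2537 of all genes. CD68, the 1 blood and endothelial marker tested, was called higher in WT cells at 24 h, at 0.68.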
